A study of Mus musculus with 2 samples.

Results

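The 7 genes described here are the GATA factors Gata2, Gata3, Gata4, Gata5 and Gata6 and the FOG cofactors Zfpm1 and Zfpm2. They were taken by gene symbol, a rule that used no measured value, from a table of 27324 rows, of which 23361 held values. RNA-Seq was performed on brown preadipocytes (D0) and on brown adipocytes differentiated for 7 days (D7). Each stage was a single library, 2 in total. The cells came from interscapular brown fat of newborn mice, C57BL/6 per the labels and C57BL/6J per the methods of the study. Per the labels, preadipocytes were grown with 20% FBS and then kept for 4 days before induction in a medium that held T3 at 1 nM, insulin at 0.1 μM and FBS at 10%. This medium was shared by both stages. For 2 days the D7 cells also received indomethacin (0.125 mM), dexamethasone (2 μg/ml) and IBMX (0.5 mM), before a return to the medium without these agents. The labels call the cells primary cultures, whereas the methods of the study describe immortalization with large T antigen and other concentrations of some agents. The methods of the study also give 4 mice, 1 day old and of either sex. Whether the cells of several pups were pooled is not given in the sources used here.

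GATA factors are zinc finger proteins that bind the DNA word GATA and are best known for their roles in blood, heart and endoderm. FOG proteins (friend of GATA) do not need to bind DNA themselves. They attach to the amino-terminal zinc finger of a GATA factor and bring the corepressors CtBP and NuRD to it. In preadipocytes, Gata2 and Gata3 are known to hold back adipogenesis, through the promoter of Pparg and through binding to C/EBP proteins, and FOG proteins are known to take part in this.

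Levels are given in FPKM as deposited, a measure scaled to transcript length and to sequencing depth, so that levels of different genes can be set side by side. With 1 library per stage there was no replicate and no test. Intervals of 95% were computed from the number of fragments behind each value, cover counting error only and compare these 2 libraries, not the stages. The fragments were recovered from the FPKM values and stand against library totals of 21471402 (D0) and 18265727 (D7). Values of 3 fragments or fewer were read as a limit and given no ratio. In such bulk samples, fewer cells of a type and less RNA per cell cannot be told apart. Brown adipocyte genes were present at D7 as the label says. The uncoupling protein gene Ucp1 was at 0 in the D0 library and at an FPKM of 4.57 in the D7 library, and Adipoq, which encodes adiponectin, was at 0.221 and 943.

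The promoters of the 2 members that were lower at D7 by at least 2.0-fold, Gata2 and Zfpm1, are shown because both share a feature not used in their choice, a high density of CG pairs. The sequences are the 250 bases before the start, 5′ to 3′ on the plus strand, from RefSeq in build GRCm38.p6, with CG pairs in capitals. The Gata2 stretch is chr6:88193641-88193890, before the upstream of its 2 listed starts, and that of Zfpm1 is chr8:122281891-122282140. No annotated exon overlaps either stretch.
Gata2: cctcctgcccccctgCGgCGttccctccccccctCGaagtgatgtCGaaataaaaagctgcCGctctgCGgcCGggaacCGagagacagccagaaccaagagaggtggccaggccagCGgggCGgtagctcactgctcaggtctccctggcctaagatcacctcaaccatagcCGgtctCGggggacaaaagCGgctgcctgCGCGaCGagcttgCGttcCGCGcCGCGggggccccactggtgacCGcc
Zfpm1: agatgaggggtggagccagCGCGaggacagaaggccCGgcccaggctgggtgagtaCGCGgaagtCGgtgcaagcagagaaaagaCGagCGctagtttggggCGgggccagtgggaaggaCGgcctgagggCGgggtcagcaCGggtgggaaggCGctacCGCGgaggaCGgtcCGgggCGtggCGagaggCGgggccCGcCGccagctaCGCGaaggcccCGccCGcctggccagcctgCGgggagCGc
In windows of 300 bases around the starts, the number of CG pairs was 32 and 29 for the 2 starts of Gata2, 22 for Gata3, 26 for Gata5 and 37 for Zfpm1. The median over all 32851 promoters was 7, and 94.4% of them held fewer CG pairs than that of Zfpm1. Such windows, 5 in all, were found for 4 of the 7 members (Gata2, Gata3, Gata5 and Zfpm1), so the density was not limited to the 2 genes shown. The words AGATAA or AGATAG or TGATAA or TGATAG, on either strand, were present in 1 of these 5 windows, that of Gata3, and in 29.8% of all promoters. They were in 0 of the 5 windows of Pparg, Cebpa and Cebpb. The CG pairs in those windows numbered 44, 13 and 2 for Pparg, 29 for Cebpa and 50 for Cebpb. A high density was thus also present at genes that were not lower by 2.0-fold. The word CCAAT occurred at 2 places of the window at the downstream start of Gata2, where the deposited transcript begins, and in 37.4% of all promoters. These matches describe the letters of the windows and nothing else.

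Gata2 was the leading GATA factor of the preadipocyte library and was much lower at D7, whereas Gata6 was higher, so that both had about the same level in the adipocyte library. Among the cofactors, Zfpm1 was lower at D7 by about 2.0-fold and Zfpm2 stayed at a similar level. Gata3 was low in both libraries, and Gata4 and Gata5 were at or near 0. Of the 6 members above 0 in both libraries, 2 were lower by at least 2.0-fold and 0 were higher. Over all 14986 genes above 0 in both libraries, 13.2% were lower by at least 2.0-fold and 18.5% were higher. This balance depended on the scaling, since 1980 genes were lower and 2767 higher with the deposited values, against 3832 and 2836 after values under 0.01 were raised to 0.01 and each library was divided by its own median, a setting that also counts genes at 0 in 1 library. Among the 11967 genes with an FPKM of at least 1 in 1 library or more, which include 4 members, these shares were 11.9% and 15.6%. With so few members, their count is a description of these genes only. Of the 5 members above 3 fragments in both libraries, the interval of the ratio lay below 1 for 2, above 1 for 1 and included 1 for 2. Over all genes, the shares were 34.8%, 33.8% and 29.9%. Here and below, shares of all genes are over the 14986 genes above 0 in both libraries. Unlike the members and list genes counted above 3 fragments, these include genes at 3 fragments or fewer and some without an interval. FPKM values of the 7 members at each stage are plotted with their counting intervals.

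**Figure D1:**
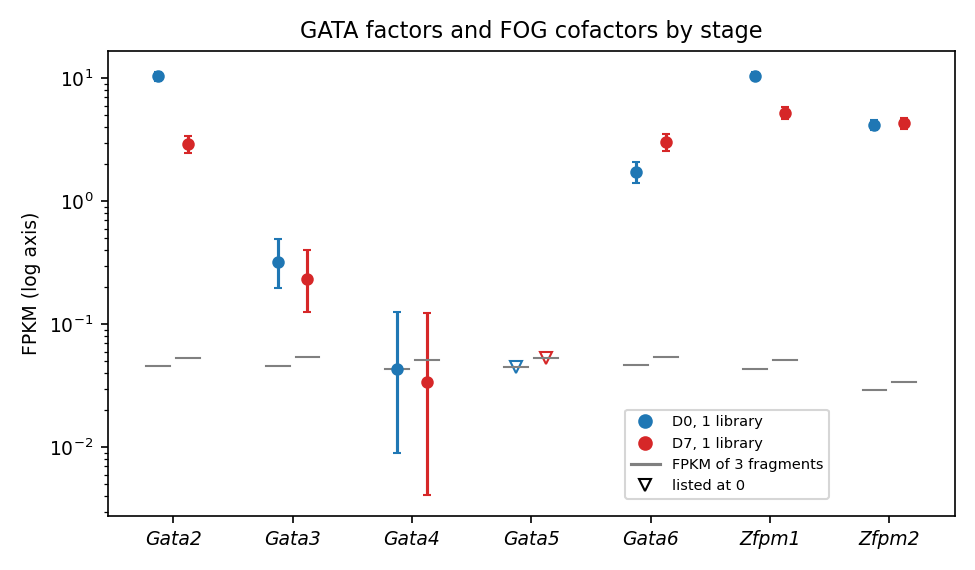
FPKM (log axis) of each member at D0 (blue) and D7 (red), 1 library each; bars are 95% intervals for counting error, grey lines the FPKM of 3 fragments and open triangles genes listed at 0, drawn at that limit. Gata2 goes from 10.4 to 2.92 and Gata6 from 1.73 to 3.02, while Gata4 lies at the limit at D0 and under it at D7.

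Gata2 (ENSMUSG00000015053.14, chromosome 6, 88193891 to 88207032 of mm10, plus strand) is a factor of blood stem cells, mast cells and endothelium and a known brake on adipogenesis. Its FPKM was 10.4 at D0, from 683 fragments (interval 9.62 to 11.2), and 2.92 at D7, from 163 fragments (2.48 to 3.40). The ratio of D7 to D0 was 0.281 (0.235 to 0.334), a value 3.56-fold lower at D7, and 4.60% of the 14986 genes had a lower ratio. At D0, 62.5% of the 15659 genes above 0 were lower than Gata2, and at D7 38.8% of 15998 were. Gata2 thus went from the upper to the lower part of the expressed genes. No other annotated gene overlaps its deposited locus, which spans the transcript from the downstream start.

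Gata6 (ENSMUSG00000005836.10, chromosome 18, 11052064 to 11085635, plus strand) is a factor of heart, lung and endoderm and of peritoneal macrophages. Its FPKM was 1.73 at D0, from 112 fragments (1.42 to 2.08), and 3.02 at D7, from 166 fragments (2.58 to 3.51). The ratio of 1.74 lay above 1 and did not reach 2.0, although its interval from 1.36 to 2.24 includes that value. Among all genes, 22.5% had a higher ratio. Its locus overlaps 1010001N08Rik on the opposite strand, and reads from any exon sequence that both share can be told apart only by strand. Whether their exons overlap was not examined. The methods of the study describe degradation of the second cDNA strand, which marks strand, but whether counting used it is not given in the sources used here.

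Gata3 (ENSMUSG00000015619.10, chromosome 2, 9857078 to 9890034, minus strand), the main factor of T helper and innate lymphoid cells, is the other GATA factor known to restrain adipogenesis. Its FPKM was 0.322 at D0, from 21 fragments (0.199 to 0.492), and 0.235 at D7, from 13 fragments (0.125 to 0.401). The ratio of 0.728 had an interval from 0.335 to 1.52, so a difference was not detectable at this depth. At D0, the level of Gata2 was 32.2 times that of Gata3 (20.9 to 52.4), and at D7 it was 12.4 times (7.07 to 23.8). Gata3 was therefore a small part of the GATA signal at both stages. Its locus overlaps Gm13256 on the opposite strand.

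Gata4 and Gata5 are, with Gata6, the members known from heart and gut. Gata4 (ENSMUSG00000021944.15, chromosome 14, 63198922 to 63271692, minus strand) rested on 3 fragments at D0 (FPKM 0.0435) and 2 at D7 (0.0341). Both values were at or under the limit, and no ratio is given. Gata5 (ENSMUSG00000015627.5, chromosome 2, 180325133 to 180334699, minus strand) was listed at 0 in both libraries. At the length of its annotated transcript, the limit of 3 fragments lies at 0.0451 (D0) and 0.0531 (D7) FPKM, and the exact 95% interval of a count of 0 reaches 0.0555 and 0.0653. The deposited locus extends past that transcript, so the length behind these limits is uncertain. Gata5os lies on the opposite strand. These limits are well under the level of Gata6. The remaining GATA factor, Gata1 of the erythroid lineage, which is no member, was also listed at 0 in both libraries.

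Summed over the 5 GATA factors, FPKM was 12.5 for the D0 library and 6.20 for the D7 library, a ratio of 0.497. Gata2 held 83.2% of this sum at D0 and 47.0% at D7. The share of Gata6 was 13.9% at D0 and 48.7% at D7. Gata3 held 2.58% and 3.78%. The level of Gata2 was 6.00 times that of Gata6 at D0 (interval 4.91 to 7.40). At D7 it was 0.966 times that of Gata6, and the interval from 0.774 to 1.21 includes 1. The ratio of Gata6 between the libraries was 6.21 times that of Gata2 (4.58 to 8.43). This last value rests on 4 numbers of fragments and is the same under any scaling between the libraries. The change in makeup of the GATA and FOG sums is plotted by stage.

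**Figure D2:**
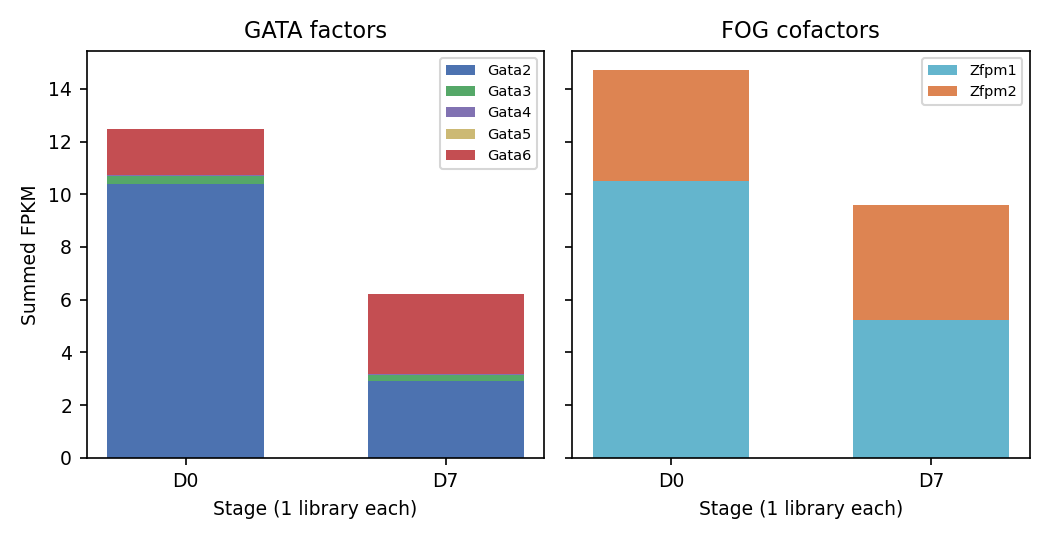
Summed FPKM (linear axis from 0) of the 5 GATA factors and of the 2 FOG cofactors at D0 and D7, 1 library each; each colour is 1 gene and its height its FPKM. The GATA bar shrinks from 12.5 to 6.20 and its Gata6 part grows from 13.9% to 48.7%, while the Zfpm2 part of the FOG bar keeps nearly the same height.

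Zfpm1 (FOG-1; ENSMUSG00000049577.15, chromosome 8, 122282141 to 122337251, plus strand) is the cofactor of Gata1 and Gata2 in blood cells. It had the highest FPKM of the members at both stages. Its FPKM was 10.5 at D0, from 724 fragments (9.76 to 11.3), and 5.25 at D7, from 307 fragments (4.68 to 5.87). The ratio was 0.499 (0.435 to 0.571), so Zfpm1 lay just past 2.0-fold and its interval includes 0.5. With 0.1 added to each FPKM the ratio was 0.504, which no longer reached it. Its locus lies within the readthrough gene Gm20388 on the same strand.

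Zfpm2 (FOG-2; ENSMUSG00000022306.9, chromosome 15, 40655035 to 41104592, plus strand) is the cofactor of Gata4 in heart and gonad. Its FPKM was 4.20 at D0, from 432 fragments (3.81 to 4.61), and 4.33 at D7, from 379 fragments (3.90 to 4.79). The ratio of 1.03 (0.897 to 1.19) could not be told from 1 by counting error, and was 0.808 when values under 0.01 were raised to 0.01 and the median over the whole table was set equal in both libraries. Its locus also holds Gm49524, Gm49525 and Gm49526 on the same strand. The level of Zfpm1 was 2.51 times that of Zfpm2 at D0 (2.22 to 2.83) and 1.21 times at D7 (1.04 to 1.41). The ratio of Zfpm1 between the libraries was 0.483 times that of Zfpm2 (0.397 to 0.588), so the 2 cofactors changed unequally. Ratios of the 5 members above 3 fragments in both libraries are plotted with their intervals.

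**Figure D3:**
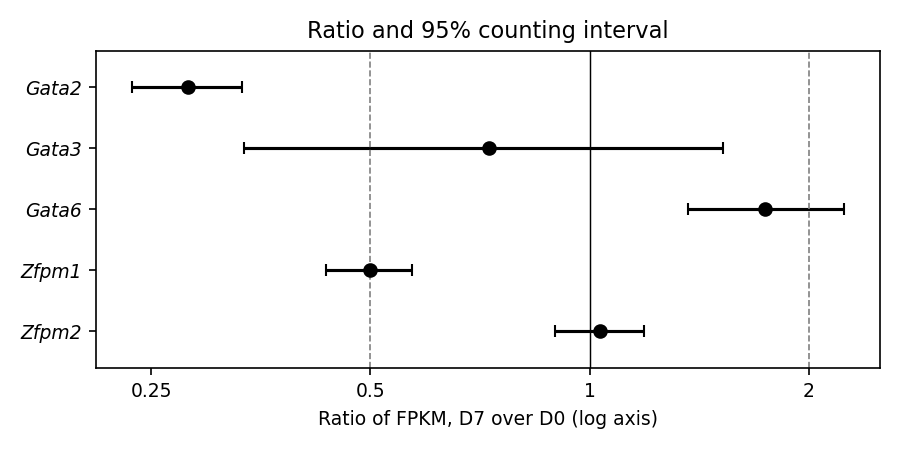
Ratio of FPKM at D7 to D0 (log axis) of the 5 members above 3 fragments in both libraries; points are ratios, bars 95% counting intervals, the solid line 1 and the dashed lines 0.5 and 2. The intervals of Gata2 and Zfpm1 lie below 1, that of Gata6 lies above 1, and those of Gata3 and Zfpm2 include 1.

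Ordered by level, the members at D0 were Zfpm1, Gata2, Zfpm2, Gata6, Gata3 and Gata4, with Gata5 at 0. Zfpm1 and Gata2 were neighbours that did not differ beyond counting error, with a level of Gata2 0.987 times that of Zfpm1 (0.888 to 1.10). Each further step down to Gata3 was larger than counting error, with Gata2 at 2.47 times Zfpm2 (2.19 to 2.80), Gata6 at 0.412 times Zfpm2 (0.332 to 0.509) and Gata3 at 0.186 times Gata6 (0.111 to 0.299). At D7 the order was Zfpm1, Zfpm2, Gata6, Gata2, Gata3 and Gata4. Gata6 was then 0.697 times Zfpm2 (0.577 to 0.838), and Gata6 and Gata2 were the neighbours that did not differ beyond counting error. Gata2 was 0.556 times Zfpm1 (0.457 to 0.674) and 0.673 times Zfpm2 (0.557 to 0.811). The ratio of Gata2 between the libraries was 0.563 times that of Zfpm1 (0.450 to 0.703), so Gata2 was lower by more than its cofactor. Such ratios were computed for all 10 pairs of the 5 members above 3 fragments. The sum of both cofactors was 14.7 at D0 and 9.58 at D7, which is 1.18 and 1.54 times the sum of the GATA factors. The 3 genes nearest to Zfpm1, the highest member at D0, by distance of log2 FPKM over the 2 libraries were Prelid2, Cdk17 and C1qtnf2. Their ratios were 0.508, 0.487 and 0.483, and with 2 libraries such likeness is weak. The place of the members among all genes is plotted as FPKM at D7 against FPKM at D0.

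**Figure D4:**
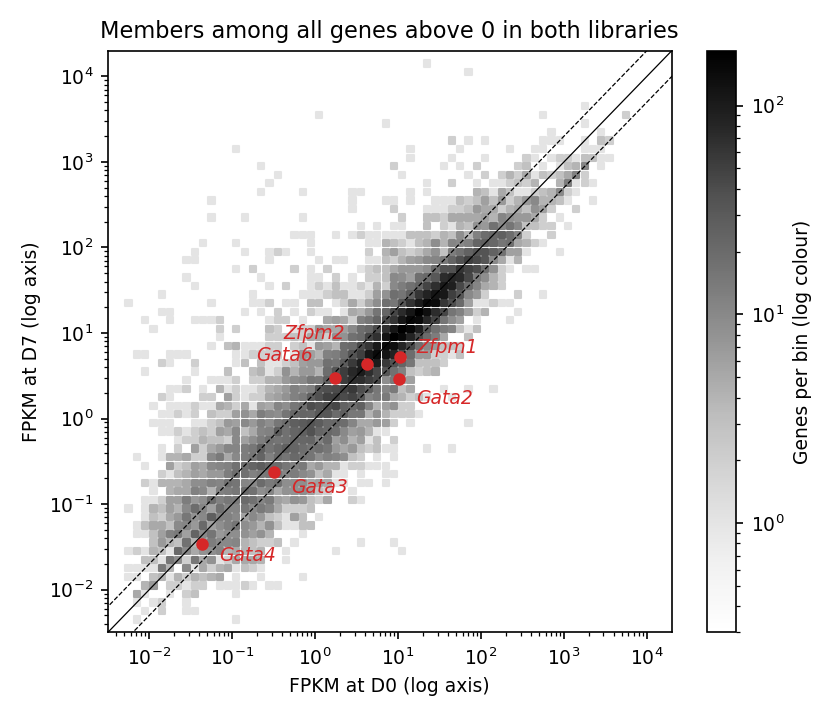
FPKM at D7 against FPKM at D0 (both log axes) for the 14986 genes above 0 in both libraries, in grey bins shaded by number of genes, with 6 members in red; the solid line is equality and the dashed lines are 2.0-fold. Gata2 lies below the lower dashed line, Zfpm1 on it, and the other 4 members between the dashed lines.

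Of the 4 adipogenic genes tied to GATA factors, 2 had a D7 level more than 2.0 times that of D0, and 0 were lower to the same degree, beside 18.5% and 13.2% of all genes. Pparg, the nuclear receptor that drives adipogenesis, went from 3.83 in the D0 library to 128 in the D7 library (FPKM), and Cebpa, a C/EBP factor of mature adipocytes, from 9.67 to 305. At D0 the level of Gata2 was thus above that of Pparg and near that of Cebpa. Cebpb, an early adipogenic factor, had 47.5 and 30.9, a ratio of 0.650 (0.593 to 0.711). Cebpd, another early factor, had 36.5 and 36.4, a ratio of 0.998 (0.945 to 1.05).

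Corepressors that FOG proteins recruit were well expressed at both stages. All 15 listed genes were above 3 fragments in both libraries, with a median log2 ratio of -0.46, beside 0.02 over all genes. Of these, 12 had an interval below 1, 1 above 1 and 2 including 1, and 1 was lower by at least 2.0-fold. Over all 14986 genes, 34.8% had an interval below 1 and 33.8% above 1, and 13.2% were lower by at least 2.0-fold. An interval excludes 1 more readily where fragments are many. These 15 genes had at least 361 fragments in each library, whereas all genes include those with few. The gene past 2.0-fold was Chd3, a helicase of NuRD, for which FPKM went from 53.9 to 23.9, a ratio of 0.444 (0.426 to 0.463). The other NuRD helicase of the list, Chd4, had a ratio of 0.850 (0.819 to 0.882). Rbbp7, a histone-binding subunit, had an FPKM of 88.8 and 59.9, a ratio of 0.674. Hdac1, a histone deacetylase, had 84.2 and 52.0, a ratio of 0.617. The corepressors Ctbp1 and Ctbp2 had ratios of 0.740 and 0.726. Mbd2 was the gene with an interval above 1, with a ratio of 1.16 (1.07 to 1.25).

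Other proteins with a GATA-type zinc finger were examined next. Of 10 listed genes, 5 of them also in the corepressor list, 8 were above 3 fragments in both libraries, with 4 intervals below 1 and 2 above 1, beside 34.8% and 33.8% of all genes. Of these 8 genes, 1 was higher and 0 were lower by at least 2.0-fold, beside 18.5% and 13.2% of all genes. The median log2 ratio was -0.32 over the 9 genes above 0 in both libraries and -0.14 over these 8, beside 0.02 over all genes. Trps1, a GATA-type repressor of cartilage and hair follicles, was the gene past 2.0-fold, for which FPKM went from 0.613 to 1.34, a ratio of 2.18 (1.76 to 2.72). Mta2, a NuRD subunit, had 50.7 and 36.9, a ratio of 0.727, and Gatad1 had 32.3 and 34.7, a ratio of 1.07.

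Partners that bind DNA with GATA factors or bridge them included genes with lower and genes with higher levels at D7. All 22 listed genes had values, and 17 were above 3 fragments in both libraries. Of the 17, 5 were lower and 4 were higher by at least 2.0-fold, 10 intervals lay below 1 and 5 above 1. Over all genes, these shares were 13.2%, 18.5%, 34.8% and 33.8%. The median log2 ratio was -0.10 over the 20 genes above 0 in both libraries and -0.30 over these 17, beside 0.02 over all genes. Runx1, a factor of blood and mesenchyme, had 9.74 and 2.21 (FPKM), a ratio of 0.227 (0.196 to 0.262). Nr2f1, an orphan receptor, had 12.3 and 4.43, a ratio of 0.361. Tcf3, an E protein, had 27.5 and 12.7, a ratio of 0.462, and Srf, the serum response factor, had a ratio of 0.470. The remaining lower gene was Tbx5, a cardiac T-box factor, with a ratio of 0.460. The 4 higher genes were Lmo2, Lyl1, Mef2c and Spi1 (in the table as Sfpi1), with ratios of 3.84, 3.93, 2.12 and 4.00, and Lyl1 rested on 9 and 30 fragments. Of these, Spi1, Lmo2 and Lyl1 are known from blood cells, and macrophage genes were also higher at D7, with a summed FPKM of 141 and 511. Their part in these ratios was not tested. Lmo1, a bridging factor, had 2 fragments at D0 and 12 at D7, with an interval of the ratio from 1.58 to 65.1. Nkx2-5, the cardiac partner of Gata4, was listed at 0 in both libraries. Ldb1, the bridging factor of GATA complexes, had 53.4 and 43.4, a ratio of 0.814, and Lmo4 had 29.1 and 30.2, a ratio of 1.04. Nr2f2, to which FOG-2 binds, had a ratio of 0.721. Log2 ratios of the members and of these lists are plotted side by side.

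**Figure D5:**
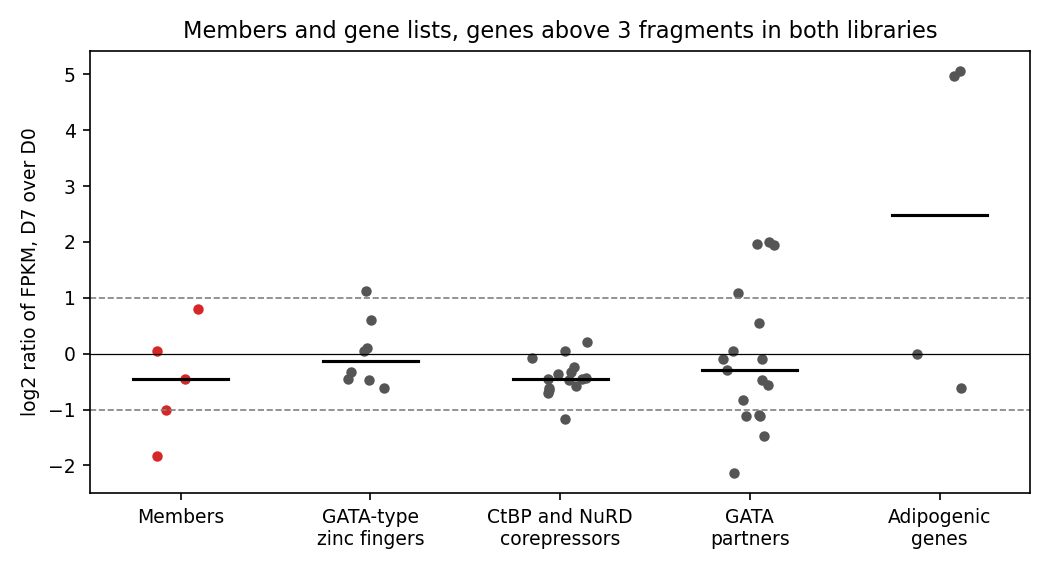
Log2 ratio of FPKM at D7 to D0 for the 5 members (red) and the genes of each list (grey) above 3 fragments in both libraries; short lines are medians, the solid line is 0 and the dashed lines are 2.0-fold. The corepressor genes form a narrow band with a median of -0.46, and the 4 adipogenic genes split into 2 near 5 and 2 near or below 0.

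Cell types in which GATA factors are known were looked for by their markers. Of 8 endothelial genes, 4 were above 3 fragments in both libraries. Over all 8, summed FPKM was 1.73 at D0 and 2.72 at D7. Pecam1 had 1 fragment in each library, Tie1 was listed at 0 in both, and Cdh5 had 13 and 2 fragments. Of 8 mast cell genes, 0 were above 3 fragments in both libraries, and the sum was 0.219 and 0.411. Fcer1a, Mcpt4 and Tpsb2 were listed at 0 in both. Above 3 fragments at D7 only were Cpa3, with 0 and 6 fragments, and Kit, with 0 and 4. Of 8 erythroid genes, 2 were above 3 fragments in both, both pairs of globin genes were listed at 0, and the sum was 0.277 and 0.459. Of the endothelial genes above 3 fragments in both libraries, Tek had a ratio of 3.11 (2.23 to 4.39) and Kdr 2.18 (1.41 to 3.41). Vwf had 1.62 (0.592 to 4.63) from 8 and 11 fragments, and Emcn had 0.516 (0.244 to 1.01). The intervals of Vwf and Emcn included 1. The part of endothelial cells in the values of Gata2 was not tested.

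Of 8 T cell and innate lymphoid genes, Cd3d, Cd3g, Cd4 and Cd8a were listed at 0 in both libraries. Il1rl1, an interleukin receptor of this list that is not limited to these cells, had 23.0 and 0.438, a ratio of 0.0190, and made up most of the sum of 23.2 and 0.615. Of 8 genes of sympathetic neurons, Th and Dbh were listed at 0 in both libraries, and the summed FPKM of 3.66 and 10.5 was nearly all from Ngfr. Of 8 mesothelial genes, 2 were above 3 fragments in both, Krt19 and Bnc1, and both intervals lay below 1. Krt19, with 6.31 and 1.88, made up most of the sum of 7.11 and 2.40. Bnc1 had 36 and 5 fragments, a ratio of 0.163 (0.050 to 0.418). Msln had 2 and 3 fragments and Upk1b had 11 and 3. Wt1 of the same list had 3 and 10 fragments. Smooth muscle genes were at high levels, with a summed FPKM of 4057 at D0 and 702 at D7. Of these 8 genes 4 were lower by at least 2.0-fold and Myocd was higher. All 8 macrophage genes had ratios of at least 2.57, with a summed FPKM of 141 and 511. Of 6 preadipocyte genes, 2 were lower by at least 2.0-fold, Pdgfrb (ratio 0.340) and Thy1 (0.469), and 1 was higher, Cd34 (8.29). Pdgfra, Ly6a and Dpp4 had ratios of 0.973, 0.741 and 0.535. Over all genes, 13.2% were lower and 18.5% higher by at least 2.0-fold. The part of macrophages in the higher value of Gata6, and of contractile or precursor cells in the lower values of Gata2 and Zfpm1, was not tested.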

How the data were processed

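RNA-Seq of 1 library at D0 and 1 at D7 was used. Per the methods of the study, the authors filtered the reads, removed duplicate and rRNA reads, and aligned the others with SOAP2 to the genome (mm10) and to gene sequences. For each gene, the authors deposited an FPKM value in each library. The labels also name Bowtie2. The gene annotation is not given in the sources used here.

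FPKM values were used as deposited. The rule for the members used gene symbols and no measured value. However, both this rule and the gene lists were set with earlier results of these data known. A gene was called at a ratio of D7 to D0 of 2.0 or more, or 0.5 or less, the cutoff of the study. The worth of 1 fragment was found on 590 single-exon genes. When 179 bp (D0) and 182 bp (D7) were subtracted from their lengths, all of the low values came out whole within 0.1. These were 76 and 85 values below or at 20 fragments (100%), against 18.7% and 18.2% after the lengths had been shuffled among genes. The subtracted bases and the library totals were fitted to these same values for wholeness. They were not fitted anew to the shuffled lengths, so the comparison is no independent check. Genes with several exons were given the length of their named transcript between the deposited ends, and otherwise that of the longest one. Ratio intervals are exact Clopper-Pearson intervals, intervals of levels are exact Poisson intervals, and those of ratios of ratios are exact conditional intervals, all at 95%.

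Named are all members, all 4 adipogenic genes, and of each other list up to 4 genes past 2.0-fold and 2 others by mean FPKM, and the 3 genes nearest to the highest member at D0. Listed genes under an older symbol in the table were matched through RefSeq synonyms (GRCm38.p6). Chd4, Ctbp1, Ctbp2, Mbd2, Tbx5, Lmo1, Lmo2, Lyl1, Mef2c, Spi1, Nkx2-5, Nr2f2, Gata1 and the single marker genes were named after their values were seen. The scripts were tested on simulated data. Alternatives were pseudocounts, scalings, TPM, filters on low values, a stricter threshold and other transcript lengths. A comparison of the zinc fingers in the proteins was not made. Coordinates are from GENCODE M21. Tools were scipy 1.17.1, numpy 2.4.6 and pandas 2.3.3 under Python 3.11.15, with plots from matplotlib 3.10.9.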

Additional observations from a re-analysis of the deposited data

How the results depend on the processing

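No paired analysis was possible because each stage has 1 library, and the spread between cultures is unknown. The direction of Gata2, Gata3, Gata6 and Zfpm1 was kept under every alternative tried, while the ratio of Zfpm2 lay on either side of 1. Gata6 ranged from 1.37 to 1.74 and Gata3 from 0.571 to 0.934. With a pseudocount of 1, the ratio of Gata2 was 0.344, and 1533 genes were higher and 1021 lower. Setting values under 0.01 to 0.01 and dividing each library by the median of all its values shifted the median log2 ratio by -0.35. It gave ratios of 0.220 for Gata2, 0.391 for Zfpm1 and 0.808 for Zfpm2, and 3832 lower genes in place of 1980, with 2836 higher in place of 2767. List medians were then -0.67 for GATA-type zinc fingers, -0.81 for corepressors, -0.45 for partners and 2.13 for adipogenic genes. The number of members lower by 2.0-fold was 2 and became 1 with a pseudocount of 0.1 or of 1, since Zfpm1 no longer reached it, and 0 at a threshold of 4.0, where 1211 genes were higher and 578 lower. For GATA-type zinc fingers the median was -0.13 with a pseudocount of 1, and -0.14 for genes with FPKM of at least 1 or at least 10 fragments in 1 library. With lengths of all annotated exons in place of the named transcript, the interval of Gata6 was 1.48 to 2.07 and that of Gata2 0.246 to 0.321.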
